A study of Caenorhabditis elegans with 6 samples.

Results

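Serotonin, dopamine, tyramine and octopamine are the monoamine transmitters of the nematode Caenorhabditis elegans, and 9 genes that make them or carry them across membranes were followed here in whole worms with and without exposure to terahertz radiation. The members were the rows of the deposited table named tph-1, cat-2, bas-1, cat-4, tdc-1, tbh-1, cat-1, dat-1 and mod-5, and all 9 were found among its 46950 rows. The rule names them by their known roles and uses no measured value, although the set was proposed with earlier results of these data known. Terahertz waves lie between infrared light and microwaves in frequency, and the title of the series names 0.26 THz. Polyadenylated RNA of whole worms was sequenced in 6 libraries, 3 labelled Control and 3 labelled THz. The sources used here do not give strain, genotype, age, sex, dose or length of exposure, and they do not say whether replicate libraries came from separate cultures. Every p-value thus sets a difference between groups against the spread of libraries within groups, and part of that spread may be technical.

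Monoamines are made from aromatic amino acids in a small number of neurons. A hydroxylase, TPH-1 for serotonin or CAT-2 for dopamine, adds a hydroxyl group to tryptophan or tyrosine with the help of the cofactor tetrahydrobiopterin, whose synthesis starts with CAT-4. The decarboxylase BAS-1 then finishes both transmitters. Tyramine is made from tyrosine in a single step by the decarboxylase TDC-1, and TBH-1 turns tyramine into octopamine. The transporter CAT-1 loads monoamines into synaptic vesicles, while DAT-1 and MOD-5 return dopamine and serotonin to the cell after release. In the worm these transmitters act on feeding, egg laying, locomotion and the response to food. Outside the nervous system, tdc-1 and tbh-1 are also known to be active in the gonadal sheath, the contractile cells around the germline, and cat-4 in the epidermis.

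The libraries held 19079447 to 21977423 reads, recovered from the FPKM values (reads scaled by gene length and by the reads of the library). Tissue markers matched the whole-body label, with 13 of 14 pan-neuronal, 10 of 10 muscle, all 7 intestinal genes found and 10 of 10 germline genes above the limit used for testing, which was 1 FPKM in at least 3 libraries. Yolk protein genes, which are active in the intestine of adult hermaphrodites, summed to 18651 to 20868 FPKM. The control libraries were less alike than the THz libraries. Correlations of log2(FPKM + 1) between libraries were 0.946 to 0.984 within the controls and 0.989 to 0.992 within the THz libraries. Control 2 and Control 3 lay at opposite ends for genes of moulting and the epidermis, with mean scores of -1.04 and 0.91 on the log2 scale against 0.47 in Control 1 and -0.36 to 0.08 in the THz libraries.

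The genes differed widely in level. Those of tyramine and octopamine stood above 100 FPKM in all 6 libraries, cat-4 and bas-1 stood between 7.05 and 23.3 FPKM, and the genes of the 2 aromatic amino acid hydroxylases and the 3 transporters stood near or under 1 FPKM. No member passed the test for a difference between THz and control worms, and no member had all 3 THz libraries on 1 side of all 3 controls. Among the 5 members tested, 3 had a lower and 2 a higher mean after THz, with a median log2 difference of -0.10 beside a median of 0.00 over all 12174 genes tested. The share of all genes called by limma (adjusted p under 0.05) was 0%, with 714 genes at an unadjusted p under 0.05. The share with all THz libraries below the controls was 7.33%, and the share with all above was 6.44%. None of the 5 members had an unadjusted p under 0.05. The voom test on recovered reads called 0 members and 0 genes, with 774 genes at an unadjusted p under 0.05.

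**Figure D1:**
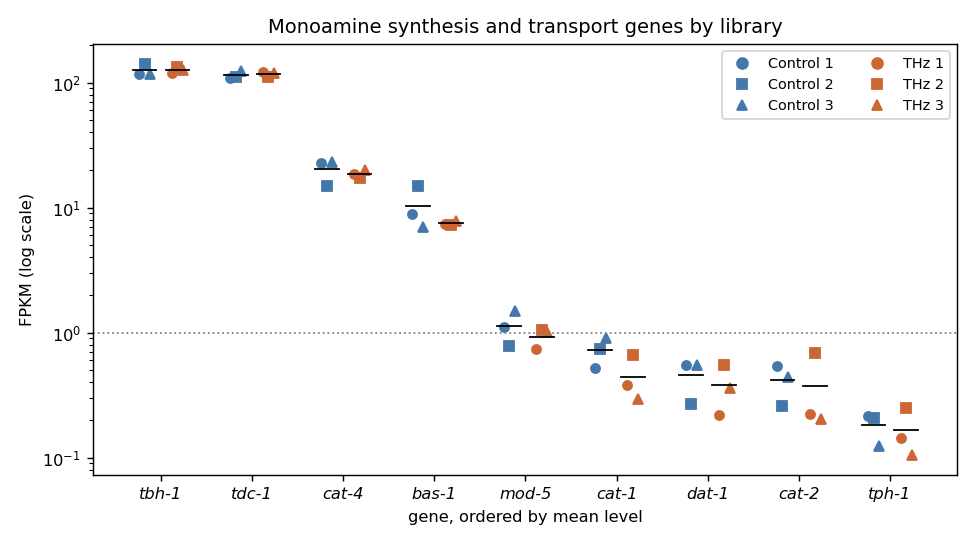
FPKM of the 9 genes in each library on a log scale, with blue points for Control, orange points for THz, marker shape for the library number and black lines for group means. The dotted line marks 1 FPKM, the limit used in the filter. The tbh-1 and tdc-1 genes lie between 109.7 and 142.1 FPKM in every library, and the Control and THz points of each gene overlap.

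The tyramine beta-hydroxylase gene tbh-1 (chromosome X, 15500259 to 15504895, build WBcel235) was the highest member. It measured 117.8, 142.1 and 116.7 FPKM in Control 1 to 3 and 119.6, 133 and 127 FPKM in THz 1 to 3. Control 2 was the highest library and the THz values lay inside the control range. The group means were 126 ± 14.4 FPKM without and 127 ± 6.87 FPKM with exposure (SD, n = 3 each). The limma log2 difference was 0.02 ± 0.10 (SE, adjusted p = 0.976), with a 95% interval of -0.21 to 0.24. Between 4514 and 5921 reads per library stood behind these values. Without Control 2 all THz libraries lay above the 2 controls left, as did those of 16.8% of all genes.

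The tyrosine decarboxylase gene tdc-1 (chromosome II, 8270567 to 8273611) measured 109.7, 111 and 124 FPKM in the control and 122, 112 and 120.3 FPKM in the THz libraries. The groups overlapped, and the 6 values spanned only a 1.13-fold range, the narrowest of the 9 genes. Means were 115 ± 8.05 and 118 ± 5.44 FPKM (SD, n = 3 each). The limma log2 difference was 0.04 ± 0.08 (SE, adjusted p = 0.921), with a 95% interval of -0.15 to 0.23. Together tbh-1 and tdc-1 held 86.8% to 89.8% of the summed FPKM of the 9 genes. Without Control 3 all THz libraries of tdc-1 lay above the 2 controls left, as did those of 17.8% of all genes. The order of the 2 genes was not fixed, since tbh-1 was higher in 4 of 6 libraries.

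Markers of the gonadal sheath were examined beside these genes because both are active there. All 4 markers were detected and tested, and none was called by limma. The innexin gene inx-8, whose gap junctions couple sheath cells to the germline, measured 72.6, 84.2 and 74.1 FPKM in the control and 70.9, 76.4 and 73.0 FPKM in the THz libraries. Control 2 was its highest library, as for tbh-1 and for 8 of 10 muscle genes, while tdc-1 was highest in Control 3. The partner of inx-8, inx-9, measured 11.3 to 21.8 FPKM in control libraries against 12.5 to 13.7 FPKM after exposure. The LIM homeobox gene lim-7, also a sheath marker, measured 4.83 to 11.1 and 5.28 to 6.85 FPKM, and Control 2 was its lowest library. The summed level of the 4 markers ran from 98.4 to 117 FPKM in control and from 94.5 to 102 FPKM in THz libraries. Over 6 libraries the mean score of these markers had a correlation of 0.580 with tbh-1 and -0.447 with tdc-1. The part of the markers in the tbh-1 and tdc-1 values was not tested.

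Some neighbouring genes share exon bases with these loci, and without strand information their reads cannot be told apart. The antisense gene H13N06.7 shares 372 exon bases with tbh-1, or 18.8% of its tabulated length. It was listed at 0 in 5 libraries and at 0.226 FPKM in Control 1. The opposite-strand gene gei-14 shares 73 bases with the end of tdc-1 and measured 26.4 to 37.4 FPKM.

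The GTP cyclohydrolase gene cat-4 (chromosome V, 10564880 to 10566445), which opens tetrahydrobiopterin synthesis, was the third in level. It measured 22.8, 14.8 and 23.3 FPKM in the control and 18.6, 17.3 and 19.9 FPKM in the THz libraries. All THz values fell in the gap between Control 2 and the other controls. Means were 20.3 ± 4.76 and 18.6 ± 1.29 FPKM (SD, n = 3 each). The limma log2 difference was -0.10 ± 0.18 (SE, adjusted p = 0.916), with a 95% interval of -0.51 to 0.32. Without Control 2 it was -0.30 (adjusted p = 0.213), and the THz libraries then lay below the 2 controls left, as did those of 19.1% of all genes. The moulting score was also lowest in Control 2, with -1.04, and its correlation with cat-4 over 6 libraries was 0.912. With the other members this correlation ran from -0.768 for tbh-1 to 0.904 for mod-5, with -0.726 for bas-1. With that score as a covariate, the limma log2 difference of cat-4 was -0.02 ± 0.11 (SE, adjusted p = 0.929). The cause of the low cat-4 value in Control 2 was not tested. The gene overlaps vps-54 by 63 exon bases, and vps-54 measured 22.5 to 28.2 FPKM.

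The aromatic amino acid decarboxylase gene bas-1 (chromosome III, 5612274 to 5614700) had the widest fold range of the 5 tested members. It measured 8.90, 14.9 and 7.05 FPKM in the control and 7.43, 7.30 and 7.83 FPKM in the THz libraries. Control 2 stood above every other library, and the THz values lay between Control 3 and Control 1. The control mean was 10.3 ± 4.10 FPKM and the THz mean 7.52 ± 0.277 FPKM (SD, n = 3 each). The coefficient of variation was 39.9% among controls and 3.69% among THz libraries. The limma log2 difference was -0.35 ± 0.25 (SE, adjusted p = 0.828), with a 95% interval of -0.93 to 0.23. Leaving out Control 2 took the difference to -0.07 (limma adjusted p = 0.861), and leaving out Control 3 took it to -0.56 (limma adjusted p = 0.402). With the moulting score as a covariate, the bas-1 difference was -0.45 ± 0.13 (SE, limma unadjusted p = 0.0067, adjusted p = 0.169). Recovered reads in Control 2 numbered 524, against 237 to 302 in the other libraries. The related decarboxylase genes basl-1, hdl-1 and hdl-2 measured at most 0.4998 FPKM in any library.

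The other genes around tetrahydrobiopterin were split in how they compared with cat-4 from library to library. The gene ptps-1 encodes the enzyme after CAT-4 in cofactor synthesis and measured 8.91, 11.3 and 5.88 FPKM in the control and 7.79, 7.21 and 7.98 FPKM in the THz libraries. The dihydropteridine reductase gene qdpr-1, which recycles the cofactor, measured 62.2, 75.7 and 47.5 FPKM in the control and 51.4 to 53.7 FPKM in the THz libraries. The recycling gene pcbd-1 measured 11.6, 13.2 and 9.86 FPKM in control and 8.18 to 10.01 FPKM in THz libraries. These 3 genes were highest in Control 2, where cat-4 was lowest. The phenylalanine hydroxylase gene pah-1, whose enzyme uses the same cofactor, was also highest there, with 44.4 FPKM against 26.1 to 33.7 FPKM in the other 5 libraries. The monooxygenase gene agmo-1, whose enzyme is another user of the cofactor, went the way of cat-4 and ranked the 6 libraries in the same order. It measured 1.24, 0.228 and 3.00 FPKM in the control and 0.440, 0.370 and 0.490 FPKM in the THz libraries and was too low to be tested. Relative to the mean of Control 1 and Control 3, Control 2 was at 0.643 for cat-4, 0.107 for agmo-1, 1.52 for ptps-1, 1.38 for qdpr-1, 1.23 for pcbd-1, 1.43 for pah-1 and 1.87 for bas-1.

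**Figure D2:**
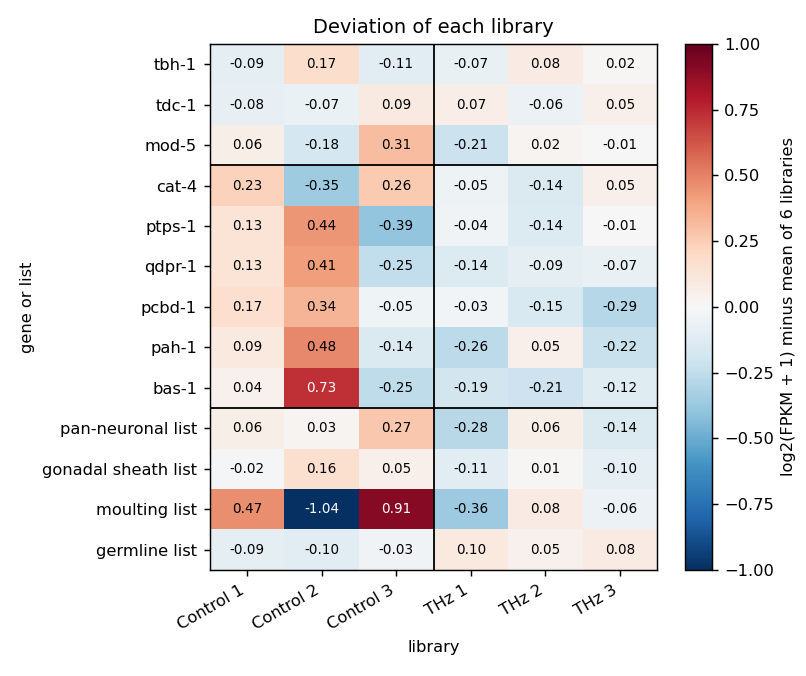
Deviation of each library from the mean of 6 libraries, in log2(FPKM + 1), for tbh-1, tdc-1 and mod-5 (top), for cat-4, bas-1 and the cofactor genes (middle), and as list scores for 4 marker lists (bottom); colours are capped at 1 in either direction. In Control 2, bas-1 is at 0.73 and cat-4 at -0.35, while the THz columns stay between -0.36 and 0.10.

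The serotonin reuptake transporter gene mod-5 (chromosome I, 3035193 to 3047794) was the lowest member that reached the test. It measured 1.099, 0.784 and 1.501 FPKM in the control and 0.737, 1.05 and 1.00 FPKM in the THz libraries, from 29 to 68 reads. The groups overlapped because of the low value in Control 2. Means were 1.13 ± 0.360 and 0.930 ± 0.168 FPKM (SD, n = 3 each). The limma log2 difference was -0.13 ± 0.20 (SE, adjusted p = 0.898), with a 95% interval of -0.60 to 0.34. Without Control 2 its THz libraries also lay below the 2 controls left, with a limma log2 difference of -0.25 (adjusted p = 0.578). Its locus shares 52 exon bases with Y54E10BR.2, which measured 35.98 to 44.2 FPKM.

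**Figure D3:**
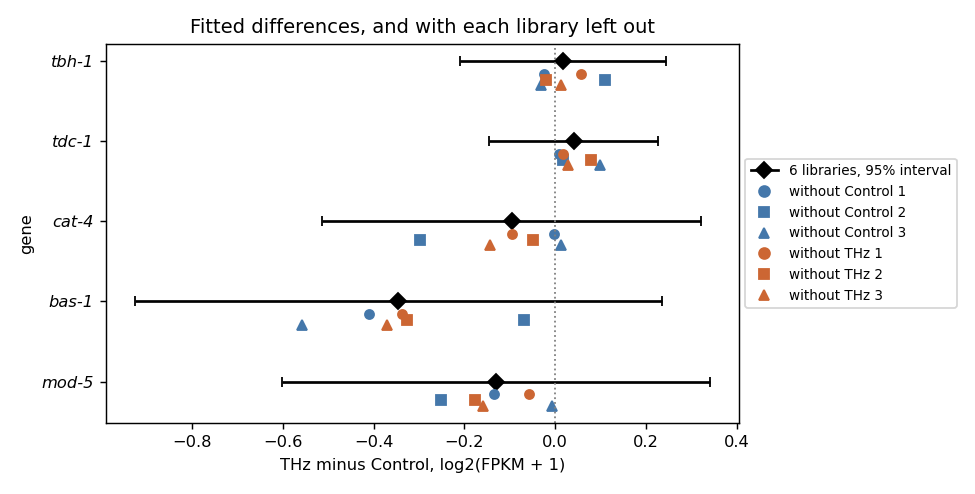
Limma difference between THz and Control in log2(FPKM + 1) for the 5 tested genes (black diamonds, bars for the 95% interval) and the same difference with each library left out (coloured points). Every interval includes 0, and the points without Control 2 (blue squares) lie farthest from the diamonds for tbh-1, cat-4 and bas-1.

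The other 4 members did not reach 1 FPKM in any library, so they were left out of the test and are described by their reads. In whole-worm RNA, fewer cells of a type and less RNA per cell cannot be told apart. The intervals given for them cover counting error only and leave out the spread between libraries. Reads copied by PCR are not independent molecules, so even the counting error may be understated.

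The vesicular monoamine transporter gene cat-1 (chromosome X, 5705719 to 5710625) had 19, 28 and 36 reads in the control and 13, 23 and 11 reads in the THz libraries. In FPKM this was 0.520, 0.739 and 0.910 against 0.379, 0.657 and 0.294. THz 2 lay among the controls, and the other two THz libraries lay below all of them. The ratio of THz to control reads per depth was 0.605, with a counting interval of 0.414 to 0.875 (exact, 95%). The 3 libraries of each group spread widely around this, with means of 0.723 ± 0.196 and 0.443 ± 0.190 FPKM (SD, n = 3 each). The voom test on recovered reads gave a log2 difference of -0.74 ± 0.44 (SE, adjusted p = 0.839). With no filter on low values, limma gave -0.26 ± 0.16 on the log2(FPKM + 1) scale (adjusted p = 0.829).

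The dopamine transporter gene dat-1 (chromosome III, 9242914 to 9246802) had 24, 12 and 26 reads in the control and 9, 23 and 16 reads in the THz libraries. The ratio of THz to control reads per depth was 0.827, with a counting interval of 0.555 to 1.22. The tyrosine hydroxylase gene cat-2 (chromosome II, 257819 to 261063), the rate-limiting enzyme of dopamine synthesis, had 18, 9 and 16 reads against 7, 22 and 7. Its ratio was 0.894 with a counting interval of 0.558 to 1.43. For both dopamine genes Control 2 was the lowest control and THz 2 the highest THz library. At 7 to 26 reads, these intervals hold counting error alone and are not the limit of what could be detected. The spread between libraries comes on top of them. The voom test gave a log2 difference of -0.28 ± 0.50 for dat-1 (SE, adjusted p = 0.917) and -0.31 ± 0.58 for cat-2 (SE, adjusted p = 0.923). The cat-2 gene lies within the span of the opposite-strand gene scc-2, which measured 40.9 to 56.2 FPKM and shares 0 exon bases with it. Whether reads of scc-2 were counted for cat-2 was not tested.

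The tryptophan hydroxylase gene tph-1 (chromosome II, 7549335 to 7551977), the rate-limiting enzyme of serotonin synthesis, was the lowest of the 9 genes. It had 8, 8 and 5 reads in the control and 5, 9 and 4 reads in the THz libraries, or 0.181 ± 0.0501 and 0.166 ± 0.0763 FPKM (SD, n = 3 each). The groups overlapped. Its ratio of THz to control reads per depth was 0.915, with a counting interval of 0.460 to 1.80. It did not reach 10 reads in any library and was not in the voom test. With no filter on low values, limma gave a log2 difference of -0.02 ± 0.08 on the log2(FPKM + 1) scale (SE, adjusted p = 0.960), and at these values that scale has little room to move. The opposite-strand gene ZK1290.10 shares 43 exon bases with tph-1 and measured 0.109 to 0.567 FPKM. The opposite-strand gene ZK1290.19 shares 102 and was listed at 0 in every library.

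**Figure D4:**
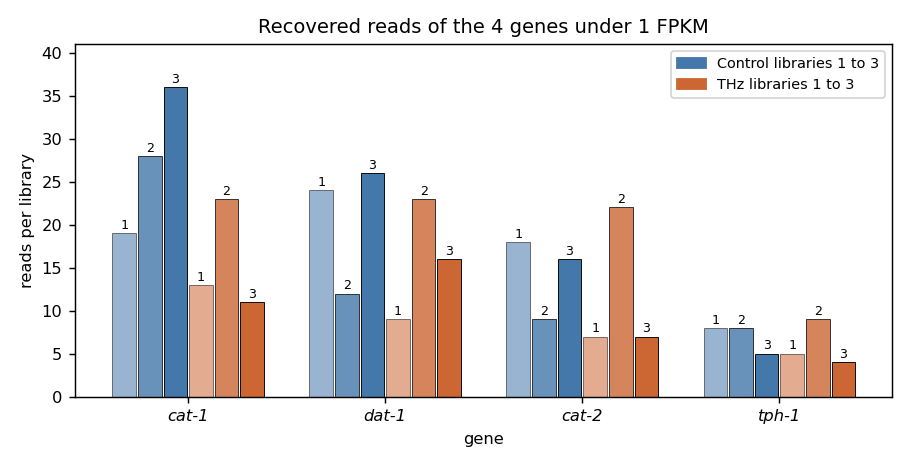
Recovered reads of cat-1, dat-1, cat-2 and tph-1 in each library (bars from 0, blue for Control, orange for THz, the library number above each bar). No gene passes 36 reads, and THz 2 is the highest THz library for all 4 genes.

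Summed over these 4 genes, reads per 1000000 counted were 3.40, 2.71 and 3.78 in the control and 1.78, 3.96 and 1.83 in the THz libraries. THz 2 exceeded every control and the other two THz libraries lay below every control. THz 1 and THz 3 were close, at 34 and 38 summed reads. By FPKM, THz 3 was the lowest THz library for cat-1, cat-2 and tph-1, and THz 1 for dat-1. The pan-neuronal list held 14 genes of the synapse and of axonal transport used by nearly all neurons. Among THz libraries it also had THz 2 highest, with THz 1 lowest. Its mean score over the 13 tested members was -0.28, 0.06 and -0.14 in THz 1 to 3 and 0.06, 0.03 and 0.27 in Control 1 to 3. Its summed level was 404 to 440.4 FPKM in control and 385 to 406 FPKM in THz libraries. The gene snb-1 alone held 246 to 255 FPKM of this sum, with a limma log2 difference of 0.01 (adjusted p = 0.980). The order of the THz libraries in the pan-neuronal score was not particular to neurons. The muscle score had it too, at -0.29, -0.03 and -0.13 in THz 1 to 3. So did the scores of the gonadal sheath, moulting, fate factor and receptor lists. The part of these lists in the values of the 4 genes was not tested. Of the 13 tested pan-neuronal genes, 12 had a lower mean after THz and 0 were called by limma, with a median log2 difference of -0.30. All THz libraries lay below the controls at 4 of the 13, where 7.33% of all genes did so. Muscle genes had a like median of -0.31, with 10 of 10 lower and 3 with all THz libraries below the controls. Germline genes had a median of 0.16, with 10 of 10 higher and 7 with all THz libraries above the controls, against 6.44% of all genes. None of the muscle or germline genes was called by limma (2 germline and 3 muscle genes had an unadjusted p under 0.05, as did 3 pan-neuronal genes). The SNAP-25 gene ric-4 averaged 10.4 ± 1.00 FPKM without and 7.30 ± 0.131 FPKM with exposure. The syntaxin gene unc-64 measured 25.1 ± 5.65 and 18.8 ± 1.20 FPKM, and the gene egl-3 32.7 ± 2.10 and 26.3 ± 2.68 FPKM. These are means with SD (n = 3 each), and the limma adjusted p was 0.827 for each gene.

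By level per length, the 9 genes fell in the order tbh-1, tdc-1, cat-4, bas-1, mod-5, cat-1, dat-1, cat-2, tph-1, with means over 6 libraries from 126 to 0.174 FPKM. Only the steps from tdc-1 to cat-4 and from bas-1 to mod-5 had no overlap between the ranges of the neighbours. The tdc-1 mean was 5.99 times that of cat-4, and the bas-1 mean 8.65 times that of mod-5. The ranges of cat-4 and bas-1 met only through Control 2, where the FPKM ratio of cat-4 to bas-1 was 0.995, against 2.37 to 3.31 in the other 5 libraries. Among cat-1, dat-1 and cat-2 neighbours changed places from library to library.

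Receptors for the same transmitters were low in whole worms. The list held 20 receptor genes for serotonin, dopamine, tyramine and octopamine, which measured between 0.120 and 3.38 FPKM, and 11 of them reached the test. Of these, 0 were called by limma, 6 had a lower and 5 a higher mean after THz, and the median log2 difference was -0.20. The serotonin receptor gene ser-4 measured 3.24, 2.59 and 3.38 FPKM in the control and 2.58, 2.64 and 1.55 FPKM in the THz libraries (limma adjusted p = 0.828). The tyramine-gated chloride channel gene lgc-55 measured 1.49, 1.08 and 1.74 FPKM against 0.418, 1.23 and 1.12 FPKM. For the dopamine receptor gene dop-4 all THz libraries lay above the controls, at 2.20, 2.54 and 2.21 against 1.12, 1.99 and 2.12 FPKM (limma adjusted p = 0.828). For dop-5 the reverse held, at 0.811 to 1.06 against 1.12 to 1.25 FPKM (limma adjusted p = 0.836). Thus 1 of the 11 tested receptors lay above and 1 below, where 6.44% and 7.33% of all genes did so. No receptor had an unadjusted p under 0.05.

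Enzymes of the cofactor and of breakdown, with relatives of the member enzymes, made up a further list of 17 genes. Of 10 tested, 0 were called by limma, 8 had a lower and 2 a higher mean after THz, with a median log2 difference of -0.15. The N-acetyltransferase gene anat-1 had all THz libraries above the controls, at 87.9, 88.1 and 87.6 FPKM against 76.4, 82.8 and 81.1 FPKM, a log2 difference of 0.13 (limma adjusted p = 0.827). This held for 1 of the 10 tested genes and for 6.44% of all genes. The amine oxidase genes amx-1, amx-2 and amx-3 overlapped between the groups.

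Transcription factors that set the fate of serotonin and dopamine neurons, among their other roles, followed the split within the control group. Of 12 such genes, 10 were highest in Control 3 and 10 were lowest in Control 2. The POU homeobox gene unc-86, needed for serotonin neurons, measured 3.796, 1.59 and 6.66 FPKM in the control and 1.65, 3.05 and 1.75 FPKM in the THz libraries. The ETS gene ast-1, needed for dopamine neurons, measured 6.08, 1.64 and 9.75 FPKM in control and 3.10, 4.50 and 2.58 FPKM in THz libraries. The gene lag-1 had the smallest unadjusted p of the list and a higher mean after THz (limma adjusted p = 0.828). It measured 50.5, 56.5 and 62.2 FPKM in control and 59.6, 66.1 and 62.5 FPKM in THz libraries, lowest in Control 1. The gene sem-4 measured 5.70, 5.97 and 9.59 FPKM in control and 4.10, 6.79 and 4.55 FPKM in THz libraries. Of 11 tested, 0 were called by limma, and 8 had a lower and 3 a higher mean after THz, with a median log2 difference of -0.06. Among the controls, dat-1, cat-2 and mod-5 were also lowest in Control 2, but over all 6 libraries each was lowest in a THz library.

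The 5 genes most like the members as a group were found by Pearson correlation with the mean member score, over 6 libraries and among tested genes with a mean of at least 5 FPKM. They were dur-1 (r = 0.982), F13D11.3 (r = 0.962), the gene sipa-1 (r = 0.961), the nuclear hormone receptor gene nhr-105 (r = 0.954) and the cathepsin-like protease gene cpz-2 (r = 0.947). The member score itself was 0.03, 0.06 and 0.06 in the control and -0.09, -0.06 and -0.0036 in the THz libraries. All values come from the same 6 libraries, and with so few points many genes reach such correlations.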

How the data were processed

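Per the labels' protocols, RNA was extracted by TRIzol and libraries were built with TruSeq RNA v2, a kit that keeps no strand. STAR, DESeq 1.10.1 and HTSeq 0.5.4 appear in the submitters' processing notes beside build WBcel235, without their roles. The authors deposited FPKM values, 1 per gene and library, with gene position, length and name. FPKM times length gave whole reads (within 0.05 reads) for 88.7% of values above 0, and for 99.97% when length plus 1 was allowed, so reads and depth were recovered from them.

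The test was limma 3.58.1 (R 4.3.3, mean-variance trend, two-sided) on log2(FPKM + 1), fitted on the 12174 genes that reached 1 FPKM in 3 or more libraries and adjusted over all of them by Benjamini-Hochberg. The pseudocount of 1 understates differences of low genes. With 3 against 3 libraries an exact permutation test can reach 0.1 at best and was not run. A list or member score is the mean over tested genes of log2(FPKM + 1) minus each gene's mean. Recovered reads were tested with voom where at least 3 libraries had 10 reads. The fit was run on simulated reads with the same dispersion in every library. That setting leaves out the split among the controls, so it does not show how the fit performs on these libraries. All 9 members are named, with up to 3 genes of smallest unadjusted p in each further list, the 5 genes most like the members, and some list genes picked after their values were seen, among them dop-5, agmo-1, ast-1, ptps-1 and qdpr-1. Members and lists were chosen with earlier results of these data known. Figures were drawn with matplotlib 3.10.9. Overlaps come from the Ensembl annotation of WBcel235, and member positions from the deposited table.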

Additional observations from a re-analysis of the deposited data

How the results depend on the processing

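No member was called under any of the 20 alternatives, which covered the pseudocount, the filter, scaling, the variance model, library weights, covariates, the replicate block, recovered reads and leaving out each library. Over all genes, library weights called 25.4%, leaving out Control 2 called 1.92%, the moulting covariate called 0.148% and the other 17 alternatives called 0%. The library weight was 4.29 for Control 1, 0.18 for Control 2 and 0.29 for Control 3, so the weighted control mean rested mainly on Control 1. In THz 1 to 3 the weights were 1.32, 0.93 and 3.59. The calls with library weights depend on these values. Over the 20, the lowest limma adjusted p of a member was 0.0906, for cat-4 with library weights (log2 difference -0.22). The median log2 difference of the members was -0.046 with a pseudocount of 5, -0.039 with a filter of 5 FPKM, -0.12 with equal upper quartiles, -0.068 after quantile normalization, -0.12 with library weights, -0.024 with the moulting score as a covariate, 0.016 with the pan-neuronal score as a covariate and -0.26 with voom on recovered reads, where 8 members were tested. Leaving out each library in turn gave a median of -0.14 to -0.0076. The number of members with all THz libraries below the controls was then 0 to 2, with 2 (cat-4 and mod-5) without Control 2 and 1 (bas-1) without Control 3, where 19.1% and 13.7% of all genes did so. In the other direction tbh-1 lay above the controls without Control 2 and tdc-1 without Control 3, with 16.8% and 17.8% of all genes. The sign of tbh-1 turned with equal upper quartiles (-0.013), quantile normalization (-0.026) and the moulting covariate (-0.012), and its values with a library left out ran from -0.032 to 0.11. For tdc-1 quantile normalization gave -0.0022. For cat-4 the pan-neuronal covariate gave 0.0021, and leaving out a library gave -0.30 to 0.012. For mod-5 the pan-neuronal covariate gave 0.12. The cause of these shifts was not tested. For bas-1 the sign held in all 20 alternatives, from -0.63 to -0.07. With the replicate number as a block the median was -0.10 and 0 members were called. Deviations of same-numbered libraries from their group means had correlations of -0.01, -0.14 and 0.03. With 3 libraries per group, these values cannot show whether the numbers pair the libraries. Depth limits tph-1, cat-2, dat-1 and cat-1 to 4 to 36 reads per library.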

Other observations

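Each tested member was also compared with all genes of at least 5 FPKM on its own, a step chosen after seeing the data and given as a description over 6 libraries that share the split among the controls. The gene most like bas-1 was the glucuronosyltransferase gene ugt-25 (r = 0.997), at 12.99 FPKM in Control 2 and 3.64 to 5.74 FPKM in the other libraries. The gene tald-1, which encodes transaldolase, and the trehalase gene tre-2 were also among its closest 5 (r = 0.996 and 0.991). For cat-4 the metallothionein gene mtl-1 was among the closest 5 (r = 0.994), at 1.53 FPKM in Control 2, 26.1 to 26.5 FPKM in the other controls and 4.69 to 8.77 FPKM in THz libraries. The tensin gene tns-1 was among those closest to mod-5 (r = 0.994).

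The FPKM ratio of tdc-1 to tbh-1 was 0.932, 0.780 and 1.06 in the control and 1.02, 0.840 and 0.946 in the THz libraries, and the groups overlapped.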
